A study of Mus musculus with 12 samples.

Results

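Gene expression was compared directly between 2 ways of disabling class I histone deacetylases (HDACs) in AML12 cells, a line of mouse hepatocytes: 3 libraries from cells treated with the inhibitor FK228 were set against 3 libraries from cells that overexpressed YF mutants of class I HDACs. FK228 cells did not receive the mutants, and YF cells did not receive the inhibitor. The series holds 12 libraries, and the other 6 came from cells given both (3 libraries) and from control cells (3 libraries). They entered the model for its estimate of spread and show where each treatment lay relative to control. The sample descriptions of the FK228 and control libraries carry a GFP code and those of the other libraries a YF code, and the labels explain neither. The sources used here do not give doses, treatment times, a vehicle, which HDACs were mutated, or the constructs and their promoters. Whether the 3 replicates of each group were grown separately is not stated, so their spread, on which every p-value rests, may be only technical. Of 19037 genes in the table, 13346 passed a filter on low counts, and all 13346 were compared.

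HDAC1, HDAC2, HDAC3 and HDAC8, the class I enzymes, remove acetyl groups from histones and other proteins. HDAC1 and HDAC2 work in the Sin3, NuRD and CoREST corepressor complexes, and HDAC3 works in the NCoR and SMRT complexes, so the proteins also serve as structural parts of these complexes. FK228 (romidepsin) is a cyclic depsipeptide that is reduced inside the cell to a thiol, which binds the zinc ion of the active site and blocks mainly class I enzymes. In this field YF names a change of the catalytic tyrosine to phenylalanine, which impairs catalysis while the protein can still join its complexes. HDAC inhibitors are known for stopping the cell cycle and for raising genes that are silent in the treated cell.

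Libraries held 23664446 to 26122998 estimated counts. Levels are given in CPM, the count of a gene relative to the scaled size of its library, set by TMM, a method that sets library sizes so that most genes do not differ. A log2 fold change is FK228 minus YF, carries its standard error after ±, and is called at an adjusted p of 0.05 (edgeR's quasi-likelihood test with Benjamini-Hochberg adjustment over the 13346 genes). The first principal component of the 6 libraries held 77.5% of the variance and separated FK228 from YF. The median absolute log2 difference between libraries was 0.318 to 0.365 across the groups, against 0.0807 to 0.141 within them. Alb, the albumin gene and the defining product of hepatocytes, was at or near 0 in every group, with at most 0.0413 CPM in FK228, 0.343 CPM in YF and 0.0389 CPM in control libraries. Other hepatocyte genes were present, so that the 12 hepatocyte markers summed to 592 to 692 CPM in FK228, 1118 to 1184 CPM in YF and 1100.0 to 1187 CPM in control libraries. The sum of 8 bile duct and progenitor markers, led by Spp1, was 5667 to 6068 CPM in FK228 and 5580 to 5796 CPM in YF libraries. The 11 macrophage and leukocyte markers summed to 54.6 to 61.1 CPM in FK228 and 120.7 to 149.5 CPM in YF libraries, and the Kupffer cell marker Clec4f and the macrophage marker Marco stood at 0 in all FK228 libraries and below 0.1 CPM in YF libraries. The 8 stellate cell markers summed to 25.8 to 27.4 CPM in FK228 and 11.3 to 16.7 CPM in YF libraries, nearly all of it from Des, and Lrat, which defines these cells, was at 0 in all 6.

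The class I HDAC genes, targets of both treatments, gave only a limited check of the YF labels. Which of them were mutated is not stated, so no single gene had to rise. Against control, Hdac1 (2.04 ± 0.06) and Hdac8 (1.23 ± 0.07) were called higher with YF, and Hdac2 and Hdac3 were not called. FK228 acts on the enzymes, so the RNA of these genes cannot show which libraries received it. Hdac1 had 110.5, 113 and 107 CPM in FK228 libraries, against 419, 382 and 405 CPM in YF libraries and 101, 101 and 91.8 CPM in control libraries. The FK228 libraries lay just above control and far below every YF library, the log2 fold change was -1.87 ± 0.06 (edgeR adjusted p = 7.28e-16), and cells given both reached 799, 795 and 798 CPM. Hdac8, which encodes a class I enzyme that acts without a large corepressor complex, gave 15.1, 17.3 and 17.2 CPM in FK228 libraries, against 41.2, 40.8 and 44.4 CPM in YF libraries (-1.35 ± 0.07, edgeR adjusted p = 1.72e-12). For Hdac2 the values were 155, 145 and 149 CPM in FK228 libraries, against 189.8, 194 and 184 CPM in YF libraries and 185, 172 and 171 CPM in control libraries. Here it was FK228 that lay apart, below both YF and control, with a difference of -0.34 ± 0.06 from YF (edgeR adjusted p = 2.43e-05). Hdac3 did not separate the treatments: it had 111, 113 and 116 CPM in FK228 libraries and 115, 109.7 and 115 CPM in YF libraries, and the 95% interval of the log2 fold change was -0.10 to 0.11. The labels do not say which mutants were introduced, and reads from a construct that matches a mouse gene would be counted as that gene. Among the 7 class II and class IV HDAC genes, which FK228 inhibits less, Hdac10 (-1.01 ± 0.11), Hdac6 and Hdac7 were lower in FK228 and Hdac11 (0.89 ± 0.09) and Hdac5 were higher.

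**Figure D1:**
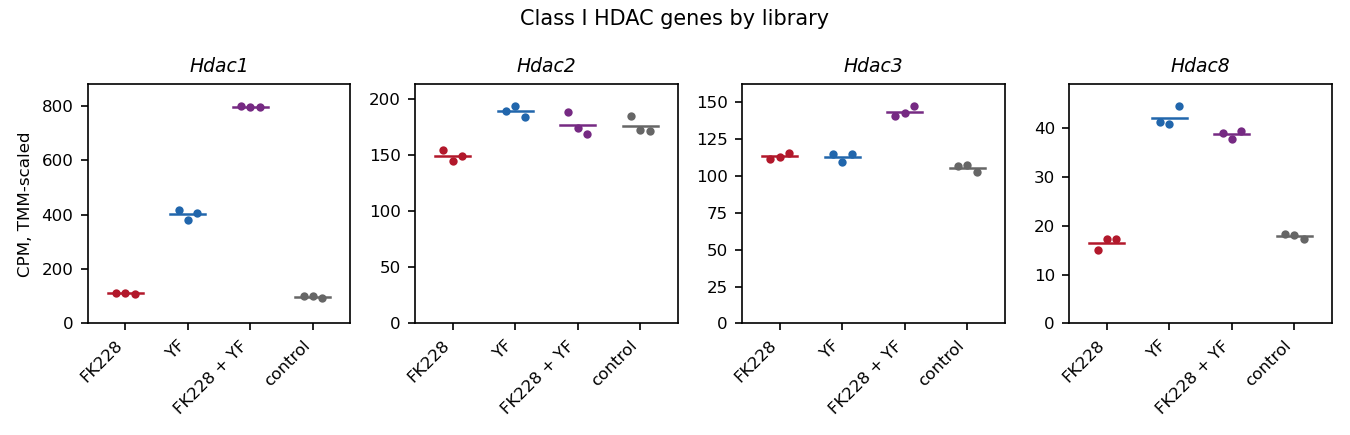
Level of the 4 class I HDAC genes in each library (CPM, TMM-scaled, linear axes from 0), with points for the 3 libraries of FK228, YF, both and control and a bar at their mean. Hdac1 and Hdac8 were high in the YF and combination libraries, Hdac2 was lowest in FK228, and the FK228 and YF libraries overlapped for Hdac3.

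Most genes differed between the treatments, and most differences were small. Of 13346 genes, 8162 (61.2%) were called, of which 3714 (27.8%) were higher and 4448 (33.3%) were lower in FK228 than in YF. Higher calls were the more numerous with RLE scaling (4113 higher, 4017 lower), with DESeq2 (4044 higher, 3947 lower) and in a fit of the 2 groups alone (4070 higher, 4047 lower). Against control, 68.8% of the same genes were called with FK228 and 32.6% with YF. Fewer than 2-fold separated the treatments at 6555 of the called genes (80.3%), and the median absolute log2 fold change over all genes was 0.33. At least 2-fold differences were found for 714 genes that were higher (5.35%) and 893 that were lower (6.69%) in FK228. All genes tested had a median log2 fold change of -0.04, which is the level against which the gene groups below are read. Counts of list members called are read against the shares over all genes tested, 27.8% higher and 33.3% lower. The genes that were at least 2-fold higher in FK228 were mostly near silence in control cells, with a median control level of 0.607 CPM, and 60.9% of them lay below 1 CPM there, against 12.8% of all genes tested. A gene near 0 in control cells passed the count filter only through another group, so this contrast is partly built in. The genes that were at least 2-fold lower had a median control level of 16.3 CPM, against 27.6 CPM over all genes tested. Under a filter of at least 5 CPM in 3 libraries, which removes many of the low genes, 301 genes were at least 2-fold higher and 598 at least 2-fold lower.

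**Figure D2:**
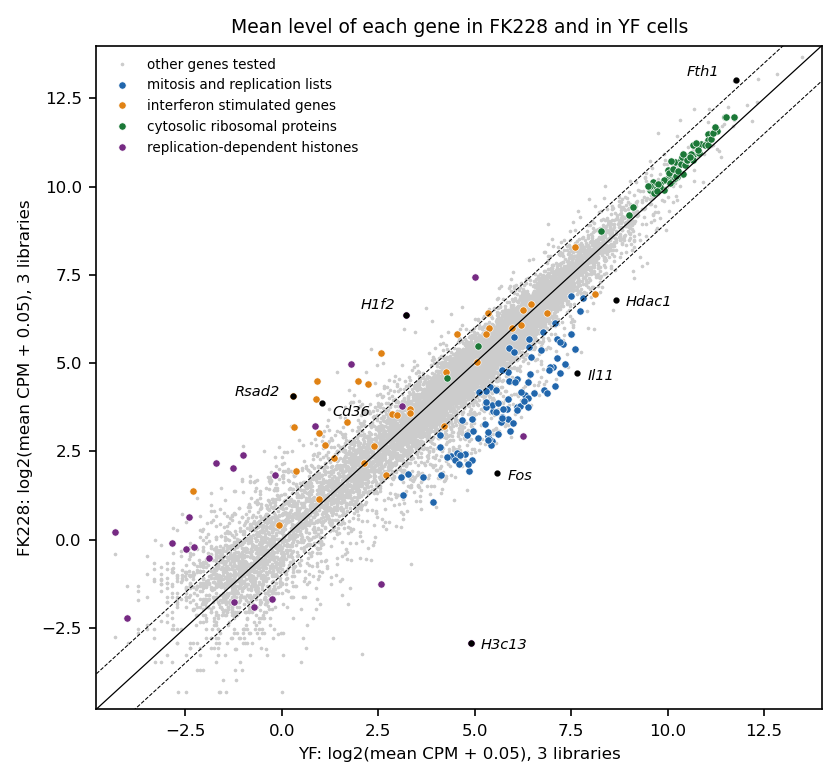
Mean level of each of 13346 genes over the 3 FK228 libraries (vertical axis) and the 3 YF libraries (horizontal axis), both as log2 of mean CPM plus 0.05. The solid line marks equal levels and the dashed lines a 2-fold difference. Mitosis and replication genes lie below the line, most interferon-stimulated genes and cytosolic ribosomal protein genes above it, and histone genes lie far from it on both sides.

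Genes of cell division were lower in FK228 than in YF without exception in 3 of the lists below, those for spindle, kinetochore and replication genes. All 47 tested genes of the mitosis lists were lower in FK228 than in YF, 21 of 21 motor and spindle genes (median log2 fold change -2.37) and 26 of 26 kinetochore and checkpoint genes (median -2.34). Relative to control the motor and spindle list had a median of -2.32 with FK228 and 0.08 with YF. Kif15, a kinesin that helps to hold the spindle poles apart, had 3.39, 5.1 and 2.85 CPM in FK228 libraries, against 25.6, 33.3 and 27.3 CPM in YF libraries and 33.3, 23.7 and 23.4 CPM in control libraries. The YF libraries overlapped control, the FK228 libraries lay far below both, and the log2 fold change between the treatments was -2.92 ± 0.19 (edgeR adjusted p = 3.17e-09). Kif14, a kinesin of the cell midbody, averaged 2.03 ± 0.183 CPM in FK228 and 15 ± 0.651 CPM in YF cells (SD, n = 3 each), a log2 fold change of -2.88 ± 0.13. Nuf2, a subunit of the NDC80 complex that ties kinetochores to microtubules, had 8.12, 8.62 and 8.43 CPM in FK228 libraries, against 52.2, 69.4 and 59.8 CPM in YF libraries (-2.85 ± 0.12, edgeR adjusted p = 2.28e-12). Plk1, the kinase that drives entry into and passage through mitosis, had 16.6, 18.4 and 18.5 CPM in FK228 libraries, against 112, 121 and 116 CPM in YF libraries and 125, 108 and 125 CPM in control libraries (-2.70 ± 0.07, edgeR adjusted p = 1.72e-16). Sgo2a, which protects centromeric cohesion (-2.72 ± 0.13), Cenpf, a kinetochore protein (-2.68 ± 0.10), Kif20a, a kinesin of cytokinesis (-2.74 ± 0.10), and Aspm, a spindle pole protein (-2.74 ± 0.12), differed by similar amounts. Iqgap3, a scaffold protein of proliferating cells (-2.84 ± 0.13), and Neil3, a DNA glycosylase of replicating cells (-2.83 ± 0.13), were among the 15 named genes with the lowest log2 fold changes. In these bulk libraries, fewer dividing cells and less RNA of these genes per cell cannot be told apart.

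Promoter sequences of the mitosis genes are shown because many of them share a pair of short motifs. In RefSeq promoter windows of GRCm38.p6, which run from 250 bases before to 50 bases after a gene's start, 41 of the 47 mitosis genes matched. CHR motifs (TTTGAA or TTCGAA on either strand), which are known from promoters of genes expressed in G2 and M phase, were found in 73.9% of their windows, against 14.4% of the windows of all genes tested. CCAAT boxes (CCAAT on either strand) were found in 76.1% of the mitosis windows, against 38.4% of those of all genes tested. Among genes at least 2-fold lower in FK228, a group that includes the mitosis genes, 27.4% of windows held a CHR motif. Ccnb2 encodes cyclin B2, a partner of the mitotic kinase Cdk1, and its window lies at chr9:70421505-70421804 on the minus strand. Capitals mark 2 CHR motifs and 3 CCAAT boxes.
Ccnb2: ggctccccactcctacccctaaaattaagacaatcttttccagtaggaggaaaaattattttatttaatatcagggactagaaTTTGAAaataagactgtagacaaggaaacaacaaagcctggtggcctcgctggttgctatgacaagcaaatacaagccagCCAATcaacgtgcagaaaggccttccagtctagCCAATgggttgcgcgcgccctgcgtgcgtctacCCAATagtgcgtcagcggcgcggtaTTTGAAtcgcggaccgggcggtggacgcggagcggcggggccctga
Ccnb2 had 18.3, 19.5 and 18 CPM in FK228 libraries, against 109, 114 and 109 CPM in YF libraries and 118, 119.8 and 122 CPM in control libraries, a log2 fold change between the treatments of -2.57 ± 0.08 (edgeR adjusted p = 4.4e-16). A match to these letters is a description of the window and does not show that a factor binds there.

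Genes of DNA replication and S phase were lower in FK228 at 45 of 45 tested members (median -1.47), with medians against control of -1.44 for FK228 and 0.10 for YF. Mcm5, a subunit of the replicative helicase, had 15.5, 13.8 and 16.5 CPM in FK228 libraries, against 71.8, 84.7 and 75.7 CPM in YF libraries and 82.4, 58.9 and 70.5 CPM in control libraries. The YF libraries lay within or just above the control range and the FK228 libraries well below it, with a log2 fold change of -2.34 ± 0.12 (edgeR adjusted p = 6.6e-11). Clspn, a mediator of the replication checkpoint (-2.46 ± 0.18), Cdc6, which loads the helicase at origins (-2.25 ± 0.12), and Rrm2, the regulated subunit of ribonucleotide reductase (-2.14 ± 0.11), completed the leading members. E2F motifs (TTTGGCGC, TTTCCCGC, TTTGGCGG or TTTCCCGG on either strand; E2F factors drive S phase genes) were found in 39.0% of the windows of the replication list, against 5.51% of those of all genes tested. The window of Mcm5 lies at chr8:75109259-75109558 on the plus strand, and capitals mark its E2F motif, which reads on the opposite strand.
Mcm5: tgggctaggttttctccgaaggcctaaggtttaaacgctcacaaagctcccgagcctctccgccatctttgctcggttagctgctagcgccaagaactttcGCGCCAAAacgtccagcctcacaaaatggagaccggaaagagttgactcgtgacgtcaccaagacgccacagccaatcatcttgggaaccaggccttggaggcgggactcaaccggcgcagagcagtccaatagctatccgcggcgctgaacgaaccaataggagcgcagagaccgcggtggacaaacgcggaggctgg
Homologous recombination and Fanconi anaemia genes led the DNA repair list, in which 30 of 34 tested members were lower and 1, the nucleotide excision repair gene Xpc, was higher (median -1.49). Fancd2, the central protein of the Fanconi pathway, averaged 5.38 ± 0.387 CPM in FK228 and 29.8 ± 3.92 CPM in YF cells (SD, n = 3 each; -2.47 ± 0.12). The kinases that sense DNA damage differed little, with -0.29 ± 0.07 for Atr, -0.20 ± 0.08 for Atm and -0.19 ± 0.10 for Prkdc, the last of which was not called (edgeR adjusted p = 0.0896).

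Most regulators of the cell cycle were lower in FK228. Of 17 cyclin, CDK and CDC25 genes tested, 14 were lower in FK228 and 1 was higher. The mitotic cyclins Ccnb1 (-2.64 ± 0.11) and Ccna2 (-2.56 ± 0.09) and their kinase Cdk1 (-2.23 ± 0.09) were lower by more than the G1 cyclin Ccnd1 (-0.65 ± 0.06), and the exception was the G1 cyclin Ccnd2 (0.56 ± 0.09). Of 17 E2F, DREAM complex and pocket protein genes, 14 were lower and 3 were higher. Foxm1, a transcription factor of G2 and M phase genes, had 16.2, 16.4 and 18.2 CPM in FK228 libraries, against 97.1, 109 and 98.1 CPM in YF libraries and 109.7, 86.2 and 101 CPM in control libraries (-2.58 ± 0.09, edgeR adjusted p = 5.86e-15). The repressive E2F genes E2f7 (-2.52 ± 0.18) and E2f8 (-2.04 ± 0.09) and the DREAM complex subunit Lin9 (-2.00 ± 0.13) were lower as well, whereas Rb1, the retinoblastoma protein gene, was higher (0.61 ± 0.06). Of 7 tested CDK inhibitor genes, 5 were lower and 2 were higher, and the lowest was Cdkn3 (-1.90 ± 0.11), which encodes a phosphatase of CDKs. Cdkn2a, which encodes p16 and p19Arf, had 158, 143 and 134 CPM in FK228 libraries, against 62.8, 53 and 66 CPM in YF libraries and 59.7, 68.4 and 67.5 CPM in control libraries (1.26 ± 0.09, edgeR adjusted p = 4.4e-10). Its neighbour Cdkn2b, which encodes p15, was also higher in FK228 (0.96 ± 0.07). Cdkn1a, which encodes p21 and is the best known target of HDAC inhibitors, went the other way, with 289, 290.3 and 304 CPM in FK228 libraries, against 372, 349.5 and 375 CPM in YF libraries and 259, 266 and 270.0 CPM in control libraries. Every library of both treatments lay above control for Cdkn1a, and FK228 lay below every YF library (-0.31 ± 0.06, edgeR adjusted p = 6.14e-05).

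Replication-dependent histone genes, whose mRNAs normally end in a stem-loop and accumulate in S phase, had the widest range of log2 fold changes among the 63 lists. Of 35 genes in the list, 22 passed the count filter, and of these 16 were higher and 5 were lower in FK228. A gene near 0 in one treatment could pass the filter through the other, so these counts describe the genes that passed and not the family, and under the filter of 5 CPM in 3 libraries 6 were higher and 3 were lower. Without FK228 replicate 2, 3 were lower. H1f2, a linker histone gene, had 88.7, 85.3 and 71.4 CPM in FK228 libraries, against 10.2, 7.74 and 10.1 CPM in YF libraries and 5.77, 5.39 and 6.03 CPM in control libraries (3.13 ± 0.10, edgeR adjusted p = 2.63e-15). Other linker histone genes went the same way, H1f4 at 4.45 ± 0.895 CPM in FK228 and 0.257 ± 0.0968 CPM in YF cells, and H1f3 at 5.19 ± 0.443 CPM in FK228 and 0.45 ± 0.0606 CPM in YF cells (SD, n = 3 each). H2ac18, an H2A gene, averaged 31.5 ± 5.83 CPM in FK228, 3.44 ± 0.821 CPM in YF and 3.6 ± 0.0991 CPM in control cells (3.19 ± 0.14). A few H3 genes stood at the other extreme. H3c13 (chromosome 3 from 96268654 to 96269155, GRCm38.p6) had 0, 0 and 0.248 CPM in FK228 libraries, against 32.7, 25.6 and 30.8 CPM in YF libraries and 0, 0 and 0.117 CPM in control libraries. Summed counts were 6 in FK228 and 2309 in YF libraries, a ratio of YF over FK228 of 363 (95% interval 167 to 991, counting error only), and cells given both had 84.3, 84.1 and 95.2 CPM. H3c11 showed the same pattern at 0.369 ± 0.228 CPM in FK228, 5.92 ± 1.57 CPM in YF, 19.2 ± 0.956 CPM in cells given both and 0.219 ± 0.124 CPM in control cells. H2ac10, in contrast, had 10.7, 6.43 and 5.62 CPM in FK228 libraries, against 63.5, 91.5 and 72.4 CPM in YF libraries and 92.2, 78.3 and 105 CPM in control libraries, so that FK228 lay apart from both. Histone genes share nearly identical coding sequences, and how the authors' counting divided such reads was not stated in those sources, so the values of single histone genes are uncertain.

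Among other chromatin genes, 15 of 20 histone acetyltransferase and bromodomain genes were lower in FK228 and none was higher (median -0.32), led by Brd9, a subunit of a SWI/SNF complex (-1.18 ± 0.08), and Hat1, which acetylates newly made histone H4 (-0.87 ± 0.09). DNA methylation and Polycomb genes were lower at 15 of 23 and higher at 2. Uhrf1, which guides maintenance methylation, averaged 14.9 ± 0.995 CPM in FK228 and 51.2 ± 5.67 CPM in YF cells (-1.78 ± 0.11), and Dnmt1, the maintenance methyltransferase, averaged 69.5 ± 4.6 CPM in FK228 and 138 ± 4.51 CPM in YF cells (-0.99 ± 0.07). Cenpa, the centromeric H3 variant, was lower (-2.44 ± 0.14), and so was H2ax, the variant phosphorylated at DNA breaks (-1.29 ± 0.08). Subunits of HDAC corepressor complexes were called in both directions, 14 of 38 lower and 8 higher, a split near that of all genes. Chd3, a chromatin remodeller of the NuRD complex, stood apart from them, with 86.8, 88.5 and 94.8 CPM in FK228 libraries, against 381, 376 and 385 CPM in YF libraries and 491, 444 and 473 CPM in control libraries (-2.08 ± 0.06, edgeR adjusted p = 1.72e-16).

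**Figure D3:**
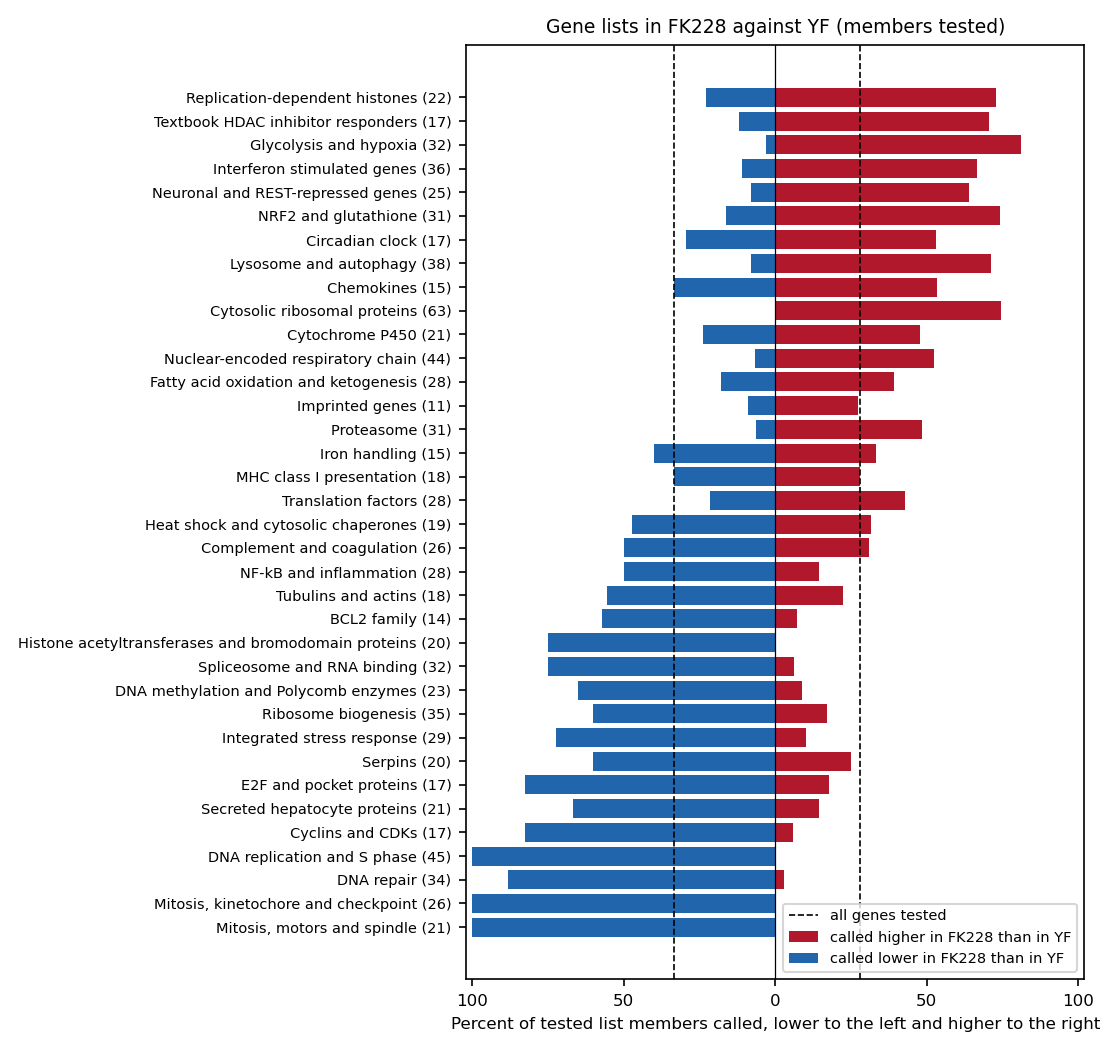
Share of the tested members of 36 gene lists that were called higher in FK228 than in YF (right, red) or lower (left, blue), in percent, with the number tested in parentheses. Dashed lines mark the shares over all 13346 genes tested, 27.8% higher and 33.3% lower. The lists shown have at least 10 tested members and the 18 highest and 18 lowest medians, ordered by the median log2 fold change.

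Interferon-stimulated genes were higher in FK228, and 6 of them, Rsad2, Ifit3b, Oas1a, Ifit3, Ifit1 and Isg15, were among the 15 named genes with the highest log2 fold changes. Ifit3 and Ifit3b lie near each other on chromosome 19 and may share reads, so they may not be separate results. In the whole list 24 of 36 tested genes were higher in FK228 and 4 were lower (median 0.58), and the list had a median against control of 0.73 with FK228 and 0.06 with YF. Rsad2, the antiviral enzyme viperin (chromosome 12 from 26442743 to 26456452, GRCm38.p6), had 16.4, 16.3 and 17.5 CPM in FK228 libraries, against 1.11, 0.915 and 1.49 CPM in YF libraries and 0.155, 0.347 and 0.117 CPM in control libraries. Both treatments lay above control and FK228 lay above every YF library, with a log2 fold change of 3.83 ± 0.15 (edgeR adjusted p = 6.66e-15). Isg15, a ubiquitin-like modifier, had 24.2, 24.1 and 19.7 CPM in FK228 libraries, against 3.99, 3.89 and 3.88 CPM in YF libraries and 3.49, 3.31 and 2.68 CPM in control libraries (2.53 ± 0.11, edgeR adjusted p = 8.99e-14). Ifit1, which binds foreign RNA caps, had 32.2, 40.5 and 43.8 CPM in FK228 libraries, against 5.85, 4.65 and 7.16 CPM in YF libraries and 3.25, 5.2 and 3.46 CPM in control libraries (2.72 ± 0.16, edgeR adjusted p = 2.52e-10). The window of Isg15 (chr4:156200769-156201068, minus strand) and that of Ifit1 (chr19:34640639-34640938, plus strand) are shown with matches to the interferon-stimulated response element (ISRE, searched on either strand as GAAA and again GAAA with any 2 bases between them) in capitals, 3 that overlap in Isg15 and 2 in Ifit1.
Isg15: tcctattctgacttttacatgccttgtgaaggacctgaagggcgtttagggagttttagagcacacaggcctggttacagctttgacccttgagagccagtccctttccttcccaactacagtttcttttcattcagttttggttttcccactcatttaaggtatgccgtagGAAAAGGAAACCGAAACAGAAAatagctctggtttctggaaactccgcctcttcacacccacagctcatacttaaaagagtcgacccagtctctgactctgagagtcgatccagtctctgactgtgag
Ifit1: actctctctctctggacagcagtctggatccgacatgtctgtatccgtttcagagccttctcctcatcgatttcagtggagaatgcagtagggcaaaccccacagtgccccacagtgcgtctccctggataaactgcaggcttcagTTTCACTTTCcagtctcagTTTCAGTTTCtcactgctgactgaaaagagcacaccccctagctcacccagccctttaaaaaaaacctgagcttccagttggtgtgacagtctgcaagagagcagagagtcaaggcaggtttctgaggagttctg
ISRE matches were found in 41.2% of the promoter windows of the interferon list, against 3.01% of those of all genes tested. Oas2, an oligoadenylate synthetase, had 188 counts in FK228 and 12 in YF libraries, a ratio of FK228 over YF of 16.6 (95% interval 9.28 to 32.7, counting error only). Oas1a, which has near-identical neighbours that may share its reads, averaged 15.8 ± 0.271 CPM in FK228 and 1.81 ± 0.569 CPM in YF cells. Among the regulators, Irf7 averaged 4.94 ± 0.663 CPM in FK228 and 2.53 ± 0.416 CPM in YF cells (0.97 ± 0.18), while Stat2 (0.26 ± 0.06), Irf9 (0.52 ± 0.08) and Irf1 (0.22 ± 0.07) differed by less. The 4 members that were lower in FK228 were Lgals3bp, a secreted glycoprotein (-1.15 ± 0.09), the ADP-ribosyltransferase genes Parp9 (-0.98 ± 0.11) and Parp14 (-0.86 ± 0.19), and Samd9l (-0.45 ± 0.08).

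Other immune genes were split between the treatments. Of 15 chemokine genes tested, 8 (53.3%) were higher and 5 (33.3%) were lower in FK228. Over all genes tested, 27.8% were higher and 33.3% were lower. Cxcl10, an interferon-inducible attractant of T cells, averaged 31 ± 1.77 CPM in FK228, 5.48 ± 0.266 CPM in YF and 7.9 ± 2.05 CPM in control cells (2.50 ± 0.14). Ppbp, which encodes a platelet chemokine precursor, had 104, 89.9 and 87.6 CPM in FK228 libraries, against 14.7, 12.2 and 13.1 CPM in YF libraries and 21.5, 17.6 and 19.4 CPM in control libraries (2.81 ± 0.10, edgeR adjusted p = 5.63e-15). Cxcl17, a mucosal chemokine, went the other way, with 2.37, 1.66 and 1.53 CPM in FK228 libraries, against 16.7, 14.4 and 16.8 CPM in YF libraries and 25.8, 32.3 and 27.3 CPM in control libraries (-3.10 ± 0.17, edgeR adjusted p = 6.61e-12). Ccl9 was lower in FK228 too, at 8.85 ± 1.2 CPM, against 47.1 ± 2.8 CPM in YF and 108 ± 7.43 CPM in control cells. In the antigen presentation list, 5 of 18 genes were higher (27.8%) and 6 were lower (33.3%), the same shares as over all genes tested. The number higher fell to 3 without FK228 replicate 3 or without YF replicate 2. Classical MHC class I genes were higher, H2-D1 by 0.98 ± 0.06 and H2-K1 by 0.79 ± 0.08, with reads that related H2 genes may share, whereas the immunoproteasome subunit Psmb10 (-2.25 ± 0.10) and the peptide-trimming enzyme Erap1 (-1.53 ± 0.10) were lower. Cybb, the catalytic subunit of the phagocyte NADPH oxidase, had 0.735, 0.324 and 0.661 CPM in FK228 libraries, against 11.3, 7.74 and 11.7 CPM in YF libraries and 10.7, 14.3 and 12.1 CPM in control libraries (-4.15 ± 0.24, edgeR adjusted p = 7.19e-12). Ptpn6, a phosphatase best known from blood cells (-2.77 ± 0.13), and Cd14, a receptor for bacterial lipopolysaccharide (-2.39 ± 0.13), were lower as well, and Itgam (1.96 ± 0.32) and the lysosomal glycoprotein Cd68 (1.73 ± 0.12) were higher. The summed macrophage and leukocyte markers, which Cd14 leads in YF, were the 54.6 to 61.1 CPM in FK228 and 120.7 to 149.5 CPM in YF libraries given above, and the part of such cells in these results was not tested.

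The genes that were lowest in FK228 relative to YF included several that YF raised above control. Fos, a subunit of the AP-1 transcription factor (chromosome 12 from 85473890 to 85477274, GRCm38.p6), had 3.84, 4.01 and 3.02 CPM in FK228 libraries, against 52.5, 42.3 and 48.6 CPM in YF libraries and 1.24, 1.08 and 0.933 CPM in control libraries. The 3 groups did not overlap, and FK228 lay closer to control than to YF, with a log2 fold change between the treatments of -3.72 ± 0.10 (edgeR adjusted p = 1.82e-16). In cells given both, Fos reached 135, 123 and 132 CPM. Fosl1, another AP-1 subunit, had 8.08, 7.97 and 9.55 CPM in FK228 libraries, against 28, 26.9 and 29.4 CPM in YF libraries (-1.72 ± 0.13), and Atf3 (-1.08 ± 0.07) and Jun (-0.47 ± 0.07) were lower in FK228 too. The list of AP-1 and immediate early genes was not uniform. Of 22 tested, 10 (45.5%) were lower and 3 (13.6%) were higher, against 33.3% and 27.8% over all genes tested. Egr1, a zinc finger factor induced by serum, was among the 3 that were higher (0.79 ± 0.26, edgeR adjusted p = 0.0256). Junb (0.08 ± 0.07) and Jund (0.16 ± 0.11) were not called. Under the filter of 5 CPM in 3 libraries 6 were lower. Il11, a cytokine of the interleukin 6 family (chromosome 7 from 4772373 to 4782907, GRCm38.p6), had 29.1, 25.6 and 23.9 CPM in FK228 libraries, against 184, 214 and 207 CPM in YF libraries and 26.9, 21.7 and 26.9 CPM in control libraries (-2.95 ± 0.10, edgeR adjusted p = 2.43e-13). FK228 libraries overlapped control for Il11, and cells given both had 52.5, 54.7 and 43.1 CPM. The acute phase genes Saa1 and Saa2 were lower in FK228, Saa1 at 1.44 ± 0.19 CPM, against 3.9 ± 1.09 CPM in YF cells, and Saa2 at 1.36 ± 0.402 CPM, against 6.86 ± 2.46 CPM in YF cells, with reads that may be shared between these close copies. In the NF-kB and inflammation list, 14 of 28 (50%) were lower and 4 (14.3%) were higher, against 33.3% and 27.8% over all genes tested.

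Serpins, a family of mostly protease inhibitors, were lower in FK228 at 12 of 20 tested genes (60%) and higher at 5 (25%), with a median of -0.71. Over all genes tested, 33.3% were lower and 27.8% were higher. The serpin list had medians against control of 1.15 with FK228 and 1.09 with YF. Serpina3i had 9.18, 6.84 and 6.49 CPM in FK228 libraries, against 57.3, 66.7 and 60.9 CPM in YF libraries and 2.52, 3.51 and 2.61 CPM in control libraries (-3.04 ± 0.13, edgeR adjusted p = 2.42e-12). The neighbouring Serpina3g (-2.35 ± 0.16), Serpina3c (-2.51 ± 0.77) and Serpina3n (-1.66 ± 0.20) were also lower, and reads may be shared within this cluster of close copies. Serpinb5, which encodes maspin, was higher in FK228 at 3.36 ± 0.598 CPM, against 0.763 ± 0.366 CPM in YF and 0.116 ± 0.00053 CPM in control cells (2.14 ± 0.24). Complement and coagulation genes, of which 26 of 37 passed the count filter, were lower at 13 of 26 (50%) and higher at 8 (30.8%). The share that was higher lay near the 27.8% over all genes tested. Of the fibrinogen chain genes, Fga was at 0.434 ± 0.262 CPM in FK228 and 2.36 ± 0.531 CPM in YF cells, and Fgb at 0.463 ± 0.169 CPM in FK228 and 1.59 ± 0.325 CPM in YF cells.

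**Figure D4:**
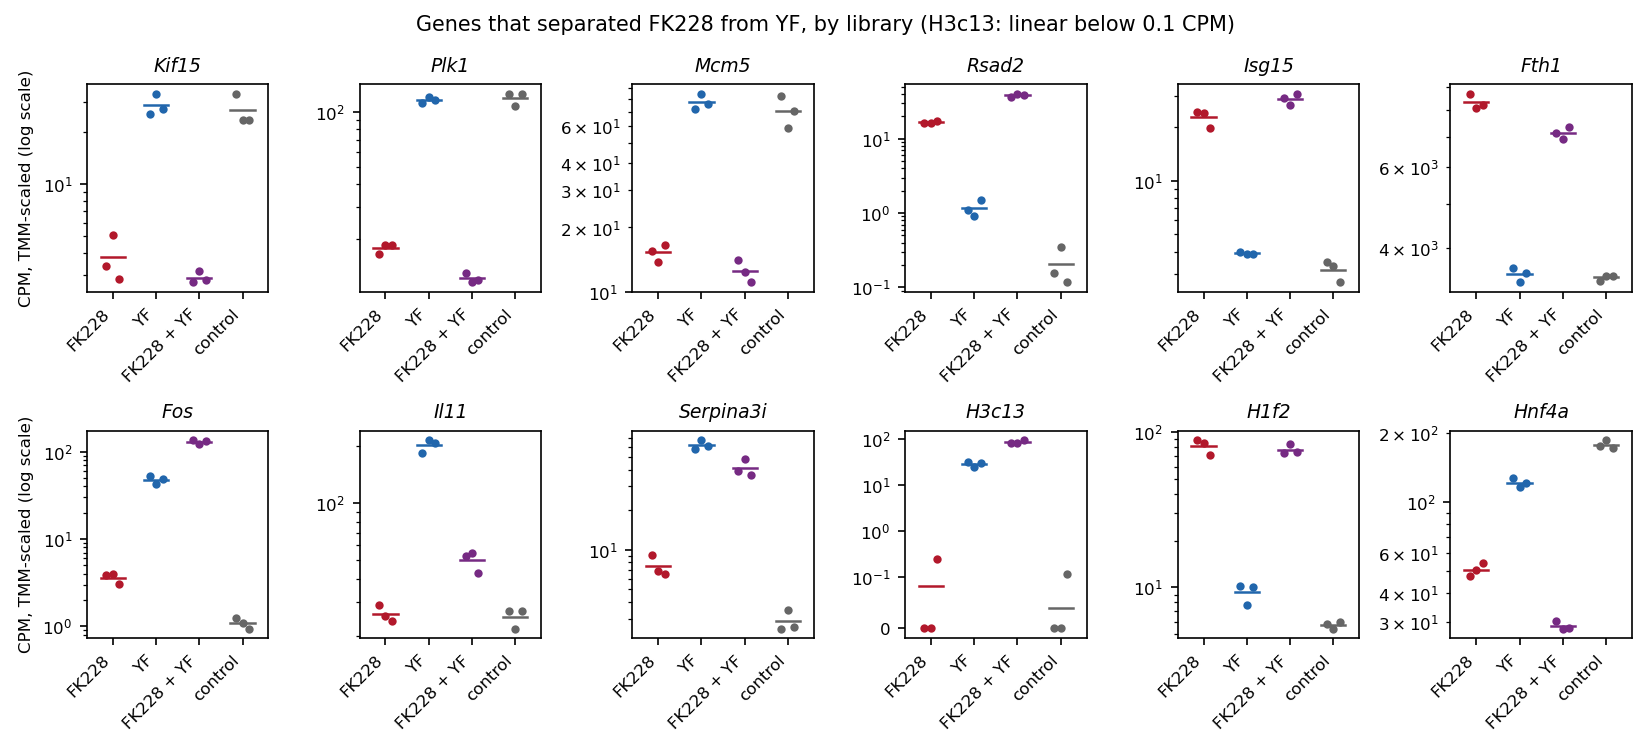
Level of 12 genes in each library (CPM, TMM-scaled, log axes, with H3c13 linear below 0.1 CPM), with points for the 3 libraries of FK228, YF, both and control and a bar at their mean. For Kif15, Plk1 and Mcm5, YF lay with control and FK228 with the combination. For Fos, Il11, Serpina3i, H3c13 and Hnf4a, YF was above FK228. For Rsad2, Isg15, Fth1 and H1f2, FK228 was above YF.

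Hepatocyte markers and secreted proteins were mostly lower in FK228 than in YF, and other hepatocyte lists were divided. Of the 9 tested hepatocyte markers, 6 were lower in FK228 and 1 was higher, and of 21 tested genes for secreted hepatocyte proteins, 14 were lower and 3 were higher (median -0.94). The marker that was higher, Cps1, had the largest difference of the 9 (3.62). It lay at 0.694 to 1.05 CPM in FK228, 0.0381 to 0.079 CPM in YF and 0 to 0.16 CPM in control libraries. The count filter kept 9 of 12 markers, 21 of 36 secreted protein genes and 21 of the 32 cytochrome P450 genes given below. A gene near 0 in one treatment could pass through the other, so these counts describe the genes that passed. Against control, 15 of the secreted protein genes were lower and 4 were higher with FK228, where 35.5% of all genes tested were lower and 33.2% higher. With YF 6 were lower and 8 were higher, where 14.6% of all genes tested were lower and 18% higher. Hnf4a, the nuclear receptor that maintains hepatocyte identity, had 47.5, 50.4 and 54.1 CPM in FK228 libraries, against 127, 116 and 121 CPM in YF libraries and 175, 186 and 172 CPM in control libraries. The 3 groups did not overlap, with FK228 lowest, and the log2 fold change was -1.26 ± 0.06 (edgeR adjusted p = 3.23e-13). Of 21 tested hepatocyte transcription factor genes, 9 (42.9%) were lower and 5 (23.8%) were higher (median 0.03), against 33.3% and 27.8% over all genes tested. The highest was Creb3l3, a liver factor of the fasting response, at 6.35 ± 0.896 CPM in FK228, 1.82 ± 0.535 CPM in YF and 0.18 ± 0.0967 CPM in control cells (1.80 ± 0.20). Apob, the protein of very low density lipoprotein, averaged 236 ± 30.1 CPM in FK228 and 393 ± 5.74 CPM in YF cells (-0.74 ± 0.07), and Trf, which encodes transferrin, 359.9 ± 20.1 CPM in FK228 and 627 ± 32.1 CPM in YF cells (-0.80 ± 0.07). Hp, which encodes haptoglobin, had 4 counts in FK228 and 326 in YF libraries, a ratio of YF over FK228 of 76.9 (95% interval 29.8 to 284, counting error only). Ttr, which encodes transthyretin, averaged 0.884 ± 0.332 CPM in FK228, 3.36 ± 1.03 CPM in YF and 9.03 ± 3.08 CPM in control cells (-1.92 ± 0.36). Cytochrome P450 genes went both ways, 10 of 21 higher and 5 lower, with 6 higher under the filter of 5 CPM in 3 libraries. Cyp2c68 had 2.04, 2.31 and 2.07 CPM in FK228 libraries, against 23.7, 18.1 and 24.5 CPM in YF libraries and 35.9, 52.6 and 33 CPM in control libraries (-3.37 ± 0.21, edgeR adjusted p = 3.1e-09), with reads that related Cyp2c genes may share. Cyp3a13 was higher in FK228 (1.23 ± 0.07), and so were the sulfotransferase Sult1d1 (3.02 ± 0.23) and the aldehyde dehydrogenase Aldh1a7, which averaged 63.1 ± 7.03 CPM in FK228, 8.99 ± 2.9 CPM in YF and 9.18 ± 1.95 CPM in control cells (2.81 ± 0.19).

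Antioxidant and lysosomal genes were mostly higher in FK228, and iron genes were divided. Of 15 tested iron handling genes, 5 (33.3%) were higher and 6 (40%) were lower, against 27.8% and 33.3% over all genes tested (list median 0.07). Fth1, the ferritin heavy chain and the gene with the largest gain in CPM, had 8675, 8069.6 and 8211 CPM in FK228 libraries, against 3616, 3369 and 3540.2 CPM in YF libraries and 3397, 3487 and 3485 CPM in control libraries (1.25 ± 0.07, edgeR adjusted p = 2.19e-12). YF lay at control for Fth1, and the light chain gene Ftl1 had 9379, 8018 and 8036 CPM in FK228 libraries, against 5188, 5157 and 5359 CPM in YF libraries (0.70 ± 0.08). Both ferritin genes have processed pseudogenes that may share reads. Hmox1, the heme-degrading enzyme, averaged 494 ± 45.4 CPM in FK228 and 119 ± 6.62 CPM in YF cells (2.05 ± 0.08), and the iron exporter Slc40a1 was higher by 0.78 ± 0.06, while the transferrin receptor gene Tfrc was not called (0.07 ± 0.07). The 6 iron genes that were lower were the metalloreductase genes Steap4 (-2.09 ± 0.27) and Steap3 (-0.35 ± 0.08), Cp, which encodes ceruloplasmin (-0.90 ± 0.06), Trf (-0.80 ± 0.07), Hfe (-0.59 ± 0.10) and Aco1, an iron-sensing aconitase (-0.27 ± 0.06). Of 31 tested genes of the NRF2 and glutathione list, 23 were higher in FK228 and 5 were lower (median 0.50). Prdx1, a peroxiredoxin, had 3981, 3789 and 3689 CPM in FK228 libraries, against 1228, 1337 and 1243 CPM in YF libraries and 1317, 1358 and 1343 CPM in control libraries (1.59 ± 0.07, edgeR adjusted p = 3.43e-14). The paired glutathione transferase genes Gsta2 (2.50 ± 0.17) and Gsta1 (-2.38 ± 0.29) differed in opposite directions, and their reads may be divided between these close copies. Ggt1, which breaks down extracellular glutathione, was lower at 0.995 ± 0.105 CPM in FK228, against 5.29 ± 0.993 CPM in YF and 17.1 ± 3.32 CPM in control cells (-2.40 ± 0.21). Antioxidant response element matches (TGACNNNGC on either strand), the motif bound by NRF2, were found in 38.9% of the promoter windows of the list, against 14.2% of those of all genes tested. Among lysosome and autophagy genes, 27 of 38 were higher and 3 were lower (median 0.45), and 25.7% of their windows held a CLEAR motif (GTCACGTG on either strand), against 3.85% over all genes tested. Ctsl, the protease cathepsin L, averaged 1047 ± 47.4 CPM in FK228 and 329.7 ± 7.52 CPM in YF cells (1.67 ± 0.06), and the autophagy receptor Sqstm1 averaged 1135 ± 46.4 CPM in FK228 and 523 ± 19.7 CPM in YF cells (1.12 ± 0.07).

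Glycolytic and hypoxia-inducible genes were higher in FK228 than in YF at 26 of 32 tested members and lower at 1, Car9 (median 0.62), with medians against control of 0.53 for FK228 and -0.14 for YF. Aldoa, the main glycolytic aldolase, had 4517, 4801 and 4756 CPM in FK228 libraries, against 2269.7, 2012 and 2143 CPM in YF libraries and 1878, 2473 and 2455 CPM in control libraries (1.13 ± 0.09, edgeR adjusted p = 6.33e-10). Ndrg1, a gene induced by hypoxia and stress, had 378, 366 and 352 CPM in FK228 libraries, against 141, 106 and 135 CPM in YF libraries and 217, 331 and 331 CPM in control libraries. Here YF lay below every control library, control replicate 1 lay well below the other 2 control libraries, and the log2 fold change between the treatments was 1.52 ± 0.16 (edgeR adjusted p = 1.04e-05). P4ha1, a collagen prolyl hydroxylase, averaged 146 ± 9.17 CPM in FK228 and 64.6 ± 4.68 CPM in YF cells (1.17 ± 0.09). The glycolytic genes Tpi1 (0.04 ± 0.08), Ldha (0.09 ± 0.07) and Pfkl (-0.15 ± 0.10) were not called.

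Lists of translation, energy, RNA processing and stress genes differed in which direction was the more common among their called members. Cytosolic ribosomal protein genes were higher in FK228 at 47 of 63 and lower at none, with a median of only 0.30. Against control 20 were higher and 1 was lower with FK228, where 33.2% of all genes tested were higher. With YF 20 were lower and none was higher, where 14.6% of all genes tested were lower. Rpl7, a protein of the large subunit, had 2388, 2370.4 and 2215 CPM in FK228 libraries, against 1597, 1672 and 1553 CPM in YF libraries and 1824, 2004 and 2029 CPM in control libraries (0.53 ± 0.07, edgeR adjusted p = 7.63e-07). The control libraries lay between the treatments for Rpl7, and Rps10 was higher by 0.64 ± 0.10. The 50 most abundant genes of each library took 17.3% to 18.5% of the counts in FK228, 14.5% to 14.6% in YF and 14.8% to 15.5% in control libraries, and its part in these small differences was not tested. Nuclear genes of the respiratory chain were higher at 23 of 44 and lower at 3, led by Uqcrh, a complex III subunit (0.74 ± 0.07), and Sdhc, a complex II subunit (0.71 ± 0.06), and proteasome genes were higher at 15 of 31 and lower at 2. Genes that build ribosomes, in contrast, were lower in FK228 at 21 of 35 and higher at 6, among them Dkc1, a pseudouridine synthase (-1.14 ± 0.11), and Ubtf, a factor of RNA polymerase I (-0.99 ± 0.06). Spliceosome and RNA-binding genes were lower at 24 of 32 and higher at 2, led by the splicing factors Srsf7 (-1.14 ± 0.08) and Srsf3 (-0.92 ± 0.07). The integrated stress response list, targets of ATF4, was lower at 21 of 29 and higher at 3. It had medians against control of -0.13 with FK228 and 0.31 with YF. Its leading members were Stc2, a secreted glycoprotein (-1.68 ± 0.14), Mthfd2, a mitochondrial folate enzyme (-1.50 ± 0.18), the transcription factor Atf5 (-1.25 ± 0.11) and Cth, which makes cysteine (-1.12 ± 0.13).

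Lipid genes showed no common direction as lists, but single members differed strongly. Of 26 cholesterol synthesis genes, 6 (23.1%) were higher and 7 (26.9%) were lower. Of 25 acetyl-CoA and fatty acid synthesis genes, 8 (32%) were called in each direction. These shares lay near those over all genes tested, 27.8% higher and 33.3% lower. Cd36, a fatty acid transporter, had 13.4, 14.8 and 15.2 CPM in FK228 libraries, against 1.98, 1.87 and 2.21 CPM in YF libraries and 0.116, 0.0385 and 0 CPM in control libraries (2.84 ± 0.14, edgeR adjusted p = 4.65e-13). Scd1, which puts the first double bond into fatty acids, averaged 84.8 ± 9.16 CPM in FK228, 21 ± 1.44 CPM in YF and 27.4 ± 3.02 CPM in control cells (2.02 ± 0.09). Acss2, which makes acetyl-CoA from acetate, averaged 59.4 ± 2.63 CPM in FK228, 19.8 ± 1.17 CPM in YF and 7.19 ± 0.561 CPM in control cells (1.59 ± 0.07). G0s2, an inhibitor of the lipase ATGL (-1.53 ± 0.11), and the lipid chaperone Fabp4 (-1.08 ± 0.17) were lower in FK228, with Fabp4 at 2.56 ± 0.73 CPM in FK228, 5.42 ± 0.178 CPM in YF and 0.0902 ± 0.0445 CPM in control cells.

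Neuronal genes, which the repressor REST and its HDAC-containing partners keep silent outside neurons, were higher in FK228 at 16 of 25 tested members and lower at 2. The list holds 42 genes, and a gene silent in control cells was tested only if a treatment had raised it, so these counts describe the genes that passed and not the list. Map2, a dendritic microtubule protein, had 24.1, 23.5 and 26.2 CPM in FK228 libraries, against 8.54, 6.21 and 8.07 CPM in YF libraries and 2.83, 2.43 and 2.99 CPM in control libraries (1.69 ± 0.11, edgeR adjusted p = 2.33e-11). Map1a (1.78 ± 0.13), the cell adhesion gene Cntnap2 (2.13 ± 0.25) and the growth cone gene Stmn2 (2.00 ± 0.25) also had YF libraries above control and FK228 libraries above YF. Rest itself was lower in FK228 (-0.58 ± 0.19). Further genes that were low in control and higher in FK228 than in YF were Gsdma, a gasdermin, at 26.6 ± 0.632 CPM in FK228, 2.67 ± 0.631 CPM in YF and 0.49 ± 0.0582 CPM in control cells (3.32 ± 0.12), and Csn3, the kappa casein gene, at 42.5 ± 3.29 CPM in FK228, 4.93 ± 0.167 CPM in YF and 1.33 ± 0.48 CPM in control cells (3.11 ± 0.10). Egfl7, a secreted vascular protein, averaged 27 ± 0.237 CPM in FK228, 4.51 ± 0.547 CPM in YF and 2.74 ± 0.371 CPM in control cells (2.58 ± 0.10). Of 17 tested genes known as responders to HDAC inhibitors from other cells, 12 were higher in FK228 than in YF and 2 were lower, which were Cdkn1a and the linker histone H1f0 (-0.61 ± 0.06). Clu, which encodes the extracellular chaperone clusterin, had 4679.6, 4761 and 4602 CPM in FK228 libraries, against 1784, 1487 and 1655 CPM in YF libraries (1.51 ± 0.08), and Thbs1, which encodes thrombospondin 1, averaged 73.1 ± 4.62 CPM in FK228 and 14.7 ± 0.663 CPM in YF cells (2.31 ± 0.14).

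Other lists of signalling, matrix, cell death and clock genes held members called in both directions. Over all genes tested, 27.8% were higher and 33.3% were lower in FK228. Of 29 TGF-beta genes, 8 (27.6%) were higher and 10 (34.5%) were lower, near those shares. Ccn2, a matricellular growth factor, had 671, 630.0 and 617 CPM in FK228 libraries, against 202, 204 and 209.6 CPM in YF libraries and 124, 93.9 and 101 CPM in control libraries (1.64 ± 0.11, edgeR adjusted p = 1.46e-09). Ltbp1, which holds latent TGF-beta in the matrix, was lower (-1.85 ± 0.09). Of 38 mesenchymal and matrix genes, 15 were higher and 10 were lower. Mmp14, a membrane-bound matrix protease, averaged 18 ± 1.18 CPM in FK228, 74.5 ± 2.13 CPM in YF and 72 ± 4.26 CPM in control cells (-2.05 ± 0.09), and Col1a1, a chain of type I collagen, averaged 5.42 ± 0.618 CPM in FK228, 1.85 ± 0.242 CPM in YF and 1.33 ± 0.147 CPM in control cells (1.55 ± 0.18). Of 21 epithelial junction and keratin genes, 9 were higher and 6 were lower. The one with the largest difference was lower: Tjp3, a scaffold of tight junctions, with 0.204, 0.121 and 0.289 CPM in FK228 libraries, against 1.54, 1.07 and 1.52 CPM in YF libraries and 2.29, 3.58 and 2.72 CPM in control libraries (-2.72 ± 0.40, edgeR adjusted p = 5.28e-06). Of 14 BCL2 family genes, 8 were lower and 1, the survival gene Mcl1 (0.26 ± 0.06), was higher. Bok, a pro-apoptotic member, averaged 0.244 ± 0.106 CPM in FK228 and 0.631 ± 0.129 CPM in YF cells (-1.35 ± 0.44). Of 30 p53 target genes, 13 were lower and 6 were higher, led by Plk2, a kinase of the centriole cycle (1.48 ± 0.08). Circadian genes were higher at 9 of 17 and lower at 5, and 3 were lower without FK228 replicate 1. Dbp, a clock output factor (1.39 ± 0.25), and Nr1d1, the nuclear receptor REV-ERB alpha (1.08 ± 0.09), were higher, and the repressor Cry1 was lower (-0.48 ± 0.13).

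A set of genes lay on opposite sides of control, with every control library between the FK228 and the YF libraries and a call against control with each treatment. The comparisons with control share the 3 control libraries. Ms4a4b, a membrane protein known from T cells, had 58.8, 61.4 and 57.8 CPM in FK228 libraries, against 11.2, 10.1 and 11.3 CPM in YF libraries and 18.6, 24 and 17.3 CPM in control libraries. Its log2 fold changes against control were 1.57 ± 0.10 with FK228 (edgeR adjusted p = 1.72e-11) and -0.88 ± 0.11 with YF (edgeR adjusted p = 3.82e-06). Ccl7, a chemokine for monocytes, had 57.1, 56.5 and 49.6 CPM in FK228 libraries, against 16.7, 18.5 and 16.8 CPM in YF libraries and 33.9, 29.5 and 30.6 CPM in control libraries, with 0.80 ± 0.08 for FK228 and -0.85 ± 0.08 for YF against control. Sult1d1, Ero1a, which oxidises proteins in the endoplasmic reticulum, Aldoc, the brain aldolase, Ankrd37, a hypoxia-inducible gene, Ppp1r42 and Lmntd2 completed the 8 with FK228 above. Control replicate 1 lay well below the other control libraries for Ero1a (96, 140 and 143 CPM), Aldoc (7.32, 10.5 and 10.9 CPM) and Ankrd37 (11.9, 16.5 and 16.9 CPM). It did not do so for Sult1d1, Ppp1r42 or Lmntd2. Sult1d1 lost its call for YF against control without YF replicate 2 (log2 fold change -0.55, edgeR adjusted p = 0.0765) or control replicate 2 (-0.78, edgeR adjusted p = 0.0668), and in the fit of the compared groups alone (-0.90, edgeR adjusted p = 0.0583). With FK228 below, Ak1, a cytosolic adenylate kinase, had 7.3, 8.86 and 9.76 CPM in FK228 libraries, against 36, 30.04 and 31.1 CPM in YF libraries and 17.3, 19.8 and 18.9 CPM in control libraries, with -1.11 ± 0.11 for FK228 and 0.79 ± 0.10 for YF against control. Cfi, the protease that inactivates complement C3b and C4b, had 8.77, 10.7 and 8.93 CPM in FK228 libraries, against 61.9, 53.1 and 60.3 CPM in YF libraries and 38.7, 45 and 38.3 CPM in control libraries, with -2.10 ± 0.10 for FK228 and 0.52 ± 0.09 for YF against control. Ccne2, the S phase cyclin E2, had 2.9, 3.36 and 2.98 CPM in FK228 libraries, against 10.6, 14 and 11.9 CPM in YF libraries and 10.5, 5.28 and 6.69 CPM in control libraries, with 1 control library just under the lowest YF library. Mybl1, Fosl1, Ugt1a7c, Gbp10 and Mthfd2 were the other members. Gbp10 lost its call for YF against control without YF replicate 1 (0.48, edgeR adjusted p = 0.0676) or control replicate 3 (0.46, edgeR adjusted p = 0.0784), and Mthfd2 lost it in 11 alternatives, among them the replicate block (0.54, edgeR adjusted p = 0.0608).

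**Figure D5:**
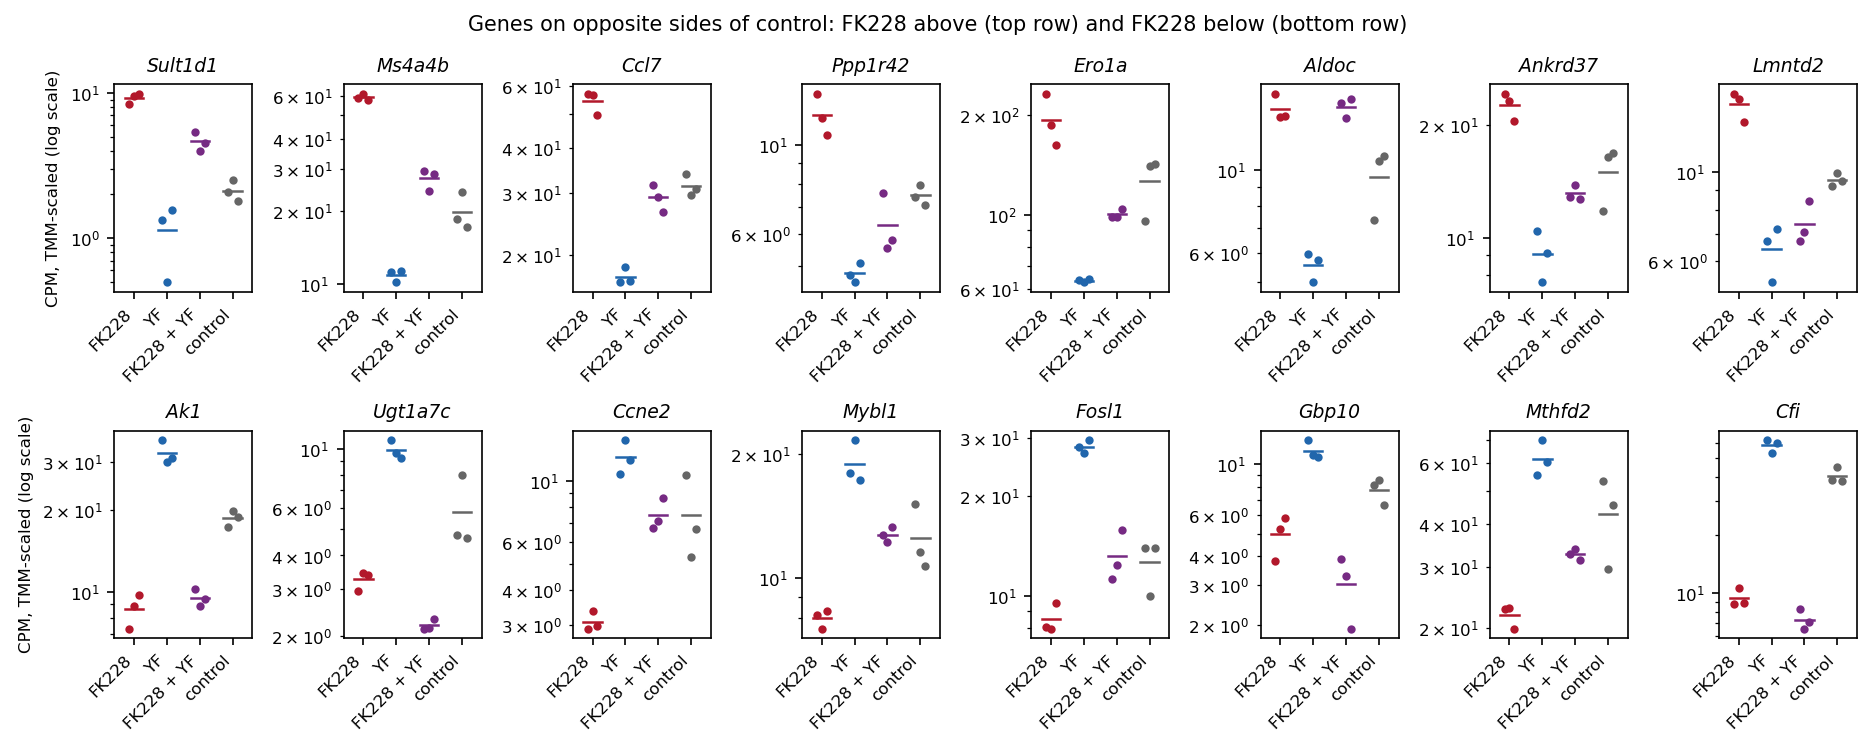
Level of the 16 genes that lay on opposite sides of control (CPM, TMM-scaled, log axes), with points for the 3 libraries of FK228, YF, both and control and a bar at their mean. In the top row FK228 lay above and YF below every control library, and in the bottom row FK228 lay below and YF above. Combination libraries lay near FK228 for Aldoc, Ak1 and Cfi and near control for Ccl7, Ccne2 and Mybl1.

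Some genes answered both treatments by amounts that these libraries could not tell apart. Genes were taken as alike where both treatments gave at least a 2-fold change from control in the same direction and the 95% interval of FK228 minus YF lay within 0.5 of 0 on the log2 scale. The 6 with the highest mean change are given, and no gene that met the rule was lower than control. Ndrg4 had 8.65, 9.27 and 11.3 CPM in FK228 libraries, against 13.6, 8.84 and 11.3 CPM in YF libraries and 0.504, 0.694 and 0.467 CPM in control libraries, with an interval of -0.48 to 0.06. It was called lower in FK228 without FK228 replicate 3 (-0.33, edgeR adjusted p = 0.0488) or without YF replicate 2 (-0.36, edgeR adjusted p = 0.0152). Rspo3, which strengthens Wnt signalling, had 34.4, 28.8 and 33.4 CPM in FK228 libraries, against 31.7, 30.04 and 30.8 CPM in YF libraries and 7.2, 6.55 and 6.96 CPM in control libraries, with an interval of -0.10 to 0.22. Cd109, a membrane glycoprotein, had 15.5, 18.1 and 18.7 CPM in FK228 libraries, against 18.8, 18 and 17 CPM in YF libraries and 3.33, 3.74 and 3.62 CPM in control libraries, with an interval of -0.24 to 0.15. Intervals were -0.37 to 0.18 for the protease inhibitor Serpinb1a, -0.37 to 0.32 for Cd74, the invariant chain of MHC class II, and -0.18 to 0.40 for Garnl3.

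Among abundant genes, the 6 with the largest gain in CPM were Fth1, Ftl1, Clu, Prdx1 and Aldoa, described above, and Tpt1, which encodes the growth-related protein TCTP, with 8660.3, 8312 and 7456 CPM in FK228 libraries, against 3305, 3476 and 3276 CPM in YF libraries (1.28 ± 0.07, edgeR adjusted p = 4.65e-12). The largest losses in CPM were those of Cxcl5, a neutrophil chemokine, at 3684 ± 176 CPM in FK228 and 4698 ± 389 CPM in YF cells (-0.35 ± 0.08), and Ppia, which encodes cyclophilin A, at 1817 ± 104 CPM in FK228 and 2689.8 ± 244 CPM in YF cells (-0.57 ± 0.08). Tuba1b, an alpha tubulin, had 466, 437 and 411 CPM in FK228 libraries, against 936, 1054 and 993 CPM in YF libraries (-1.18 ± 0.07, edgeR adjusted p = 5.05e-12). Tubb6, a beta tubulin, was lower too (-1.75 ± 0.09), and 10 of 18 tubulin, actin and stathmin genes were lower and 4 higher. Pea15a (-0.78 ± 0.06), Tmem176b (-0.32 ± 0.07) and Ly6e (-0.52 ± 0.07) completed the abundant genes with the largest losses.

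Cells given both treatments lay, at the median, nearer to FK228 than to YF over the genes that separated these. Over the 714 genes at least 2-fold higher in FK228, the combination differed from FK228 by a median log2 fold change of 0.00 and from YF by 1.58. Over the 893 genes at least 2-fold lower, it differed from FK228 by -0.06 and from YF by -1.71. These genes were chosen on the FK228 and YF libraries that enter both differences, so the medians are a description. Several genes described above stood apart from this, far above FK228 in the combination, among them Fos, H3c13, H3c11, Serpina3i and Hdac1. Serpina3i, for example, had 39.4, 48.3 and 36.5 CPM in the combination, against 9.18, 6.84 and 6.49 CPM in FK228 libraries.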

How the data were processed

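RNA sequencing was done on 12 AML12 libraries, 3 in each of 4 groups, per the labels' protocols from TRIzol-extracted RNA sequenced in pairs of reads on a BGISEQ machine. The values are the estimated counts per gene that the authors deposited, named as read counts per the file headers, and 16.6% of them are not whole. The submitters' processing notes name the build GRCm38.p6 and, without their roles, RSEM 1.2.12, Bowtie2 2.2.5, HISAT2 2.0.4 and DESeq2 1.4.5. The strand setting, and how reads that match several genes were divided, are not given in those sources.

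The expected counts were rounded to whole numbers, filtered with filterByExpr over the 4 groups, scaled by TMM and fitted with edgeR 4.0.16 in R 4.3.3, with all 12 libraries in one quasi-likelihood model and no covariates. The contrast was FK228 minus YF, and each treatment was also set against control. P-values were adjusted by the Benjamini-Hochberg method over 13346 genes, and a standard error is the absolute log2 fold change over the square root of the F statistic. No pair of libraries in a group differed by as little as sampling noise. Where 1 group had few counts, a ratio of summed counts with an exact 95% interval is given, which covers counting error only. The model was tested on counts simulated without a difference between FK228 and YF except at chosen genes. It made 199 calls, of which 19 were false. It recovered 77.6% of the changes of 0.5 on the log2 scale, 92.5% of those of 1 and 100% of those of 2. The changed genes, 67, 67 and 66 of these sizes among 13209 tested, were drawn without the low-count genes. In the data 61.2% of genes were called, so the rates do not cover low-count genes or so many differences. Gene positions and promoter windows came from RefSeq for GRCm38.p6, and 18980 of 19037 genes matched by gene ID.

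Named genes came from called genes with a proper symbol, non-overlapping libraries and at least 5 CPM on average: the 15 with the highest and the 15 with the lowest log2 fold change, 8 in each direction on opposite sides of control, and the 6 largest gains and losses in mean CPM. To these were added genes changed alike by both treatments, the class I HDAC genes, and up to 4 leading members of each of 63 lists. Others were chosen after their values were seen, for their known role. The comparison, the gene lists and the rule were chosen with earlier results of these data known. Alternatives were RLE scaling, no count filter, at least 5 CPM in 3 libraries, DESeq2 1.42.0, limma-voom (limma 3.58.1), the replicate block, a fit of FK228 and YF libraries alone, and leaving out each library.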

Additional observations from a re-analysis of the deposited data

How the results depend on the processing

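Of the counts over all genes, those of at least 2-fold differences moved by more than 1.5 times under the filter of at least 5 CPM in 3 libraries, which tests 10770 genes: 899 were at least 2-fold different, against 1607 with the usual filter, and 301 were at least 2-fold higher in FK228, against 714. The number of genes called was 8130 with RLE scaling, 8052 without a filter, 7991 with DESeq2, 8156 with limma-voom and 8117 in the fit to the compared groups alone. Higher calls made up 45.5% of calls with TMM, 50.6% with RLE scaling or DESeq2 and 50.1% in the fit to the compared groups alone. No scaling moved the median log2 fold change by more than 0.0427.

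Leaving out each library in turn gave 7470 to 8441 calls, 3357 to 3918 higher and 3844 to 4622 lower, and 1564 to 1661 with at least a 2-fold difference, of which 659 to 771 were higher and 860 to 916 were lower. A group left with 2 libraries was assumed to vary like the others.

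Same-numbered FK228 and YF libraries deviated from their group means with correlations of -0.0907, 0.00525 and 0.0577. With 3 libraries per group these values cannot show whether same-numbered libraries shared a day or culture, which the labels do not state. With the replicate block 7956 genes were called, 3611 higher and 4345 lower, and 7927 of the 8162 calls were kept.

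Among named genes, 21 values of FK228 minus YF under an alternative lost their call and 2, both for Ndrg4, gained one, while 5205 kept direction and side of the threshold. None reversed. Against control, 34 values lost and 30 gained a call with FK228, and 130 lost and 71 gained one with YF. Beside the list counts given with their results, aminoacyl-tRNA synthetase genes that were lower numbered 10, and 6 without FK228 replicate 2. Mitochondrial ribosomal protein genes that were higher numbered 7, and 11 without FK228 replicate 3. Hedgehog and Notch genes that were lower numbered 5, and 3 without FK228 replicate 1. The cause of these shifts was not tested. Depth limits the genes below 1 CPM, where a library holds few counts.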
